A study of Mus musculus with 9 samples.

Results

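Itpr1, Calb1, Pcp2, Zic1, Zic2, Cbln1, Car8 and Pvalb are 8 genes of cerebellar neurons, picked by symbol from the authors' gene table, in which 30736 lines name a gene. The study mapped RNA held by FMRP, whose loss causes fragile X syndrome, and by the neuronal Hu proteins, by HITS-CLIP: ultraviolet light fixes a protein to the RNA it touches, and the RNA fragments that come down with the protein are sequenced as tags. All 9 libraries came from polyribosomes of FVB mouse brain, each from pooled littermates, with cortex and cerebellum combined after removal of white matter. FMRP was precipitated with a polyclonal antibody (ab17722) at P11 and P13 in Protocol 2 (2% SDS, Illumina), with the same antibody at P14 and P25 in Protocol 1 (1% SDS, 454), and with the mixed monoclonal antibodies 7G1-1 and 2F5 at P14, P15 and P25 in Protocol 1. Hu proteins were precipitated with a human antiserum from another portion of the same P11 and P13 lysates, in Protocol 2. The labels give no more than this on the mice. Libraries from Fmr1-null littermates are not analysed here.

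Purkinje cells are the output neurons of the cerebellar cortex, and granule cells, their main source of excitatory input, are the most numerous neurons of the brain. Purkinje cells rely on calcium release from the endoplasmic reticulum through the inositol trisphosphate receptor encoded by Itpr1, and they hold high levels of calcium-binding proteins, among them calbindin (Calb1) and parvalbumin (Pvalb). Car8 encodes a carbonic anhydrase-related protein without enzyme activity that binds this receptor, and Pcp2 a Purkinje cell modulator of G proteins. Granule cells secrete Cbln1, which joins neurexins to the glutamate receptor GluD2 on Purkinje cells, and they express the zinc-finger transcription factors Zic1 and Zic2. In the weeks covered by the libraries granule cells migrate inward and Purkinje cell dendrites grow. Itpr1, Calb1 and Pvalb are also made in neurons of the cortex, so a tag on them is not tied to the cerebellum here.

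The tag numbers split the 8 genes sharply. Itpr1 held 261 of the authors' FMRP tags and was tagged in all 7 FMRP libraries, while the other 7 genes held 1 to 15 tags each. On mm9, Itpr1 (NM_010585.3) spans 108163090 to 108501104 of chromosome 6, with a transcript of 10447 nt of which 8326 nt are coding. It stood at rank 29 of the authors' deposited table, which lists an FDR of 2.77e-10 for it. The authors' deposited table also places Itpr1 in published collections of postsynaptic proteins and of the mGluR5 complex. It further gives a WT/KO mRNP ratio of 37.3 and a WT/input mRNP ratio of 4.7 from an earlier study of RNA that came down with FMRP. Of the other genes, Zic1 had the lowest p-value in the authors' deposited table, 0.0083, beside a deposited FDR of 0.182.

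The granule cell genes Zic1 and Zic2 came next. Zic1 (chromosome 9, 91255183 to 91260637) had 15 FMRP tags in 5 libraries, and a second line of the table with this symbol (91253313 to 91255035) had 1 tag. Zic2 (chromosome 14, 122874606 to 122879550) had 10 tags in 4 libraries, and Cbln1 (chromosome 8, 89992752 to 89996491) had 5 tags in 2 libraries. Among the Purkinje cell genes, Pvalb (chromosome 15, 78021548 to 78034586), which is also listed as a marker of cerebellar interneurons, had 7 tags. Car8 (chromosome 4, 8068640 to 8166188) had 5. Calb1 (chromosome 4, 15808411 to 15833856) had 2 tags and Pcp2 (chromosome 8, 3623371 to 3625282) had 1. By the authors' counts all tags of Pvalb, Calb1 and Pcp2 came from the P13 library, the deepest of the FMRP libraries. Tags placed on the genome within gene bounds also include 1 on Calb1 at P14 and 1 on Pvalb at P25, both with the polyclonal antibody. Each of 15 other granule cell genes had between 0 and 58 FMRP tags in the 7 libraries by the same counts, with Fat2 at 58, Nfix at 41 and Reln at 31. Cerebellum was not separated from cortex.

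Depth set what could be seen. The lists of tags placed on transcripts held 4397 to 7713 tags in the 454 libraries and 25873 to 49847 in the Illumina libraries. A count of 0 allows up to 3 tags, or 682 CPM (a gene's tags after all libraries are brought to 1 common total) at the lowest depth and 60.2 CPM at the highest. For the 7 genes other than Itpr1, absence from a 454 library was therefore below what these counts could show. Intervals on tag numbers cover counting error only.

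Several sparsely tagged genes had high array intensities. On the exon array intensity that the authors set beside each gene, Pcp2 reached 1825, Cbln1 1620, Calb1 1538 and Pvalb 1502. These 4 intensities lay between the percentiles 97.6 and 98.4 of all lines with an intensity, close to Itpr1 with 2413 (percentile 99.1). By FMRP tags, Itpr1 lay at percentile 99.9 of 17731 lines with an intensity and a length, Pvalb at 82.9, Cbln1 at 78.2, Calb1 at 63.3 and Pcp2 at 51.6. The 475 lines with an intensity at least that of Pvalb had a median of 13 FMRP tags, with 5 and 30.5 as the quartiles, so Calb1 and Pcp2 were under the lower quartile and Cbln1 was at it. Those lines were longer, with medians of 3300 nt for the transcript and 1250 nt for its coding part. The coding part was 333 nt for Pvalb, 582 for Cbln1, 621 for Pcp2 and 786 for Calb1. The part of length in these tag numbers was not tested. Car8 had an intensity of 724. Zic1 and Zic2, with lower intensities of 683 and 411, had more FMRP tags than Pvalb, Cbln1, Car8, Calb1 and Pcp2. Which tissue and age the array measured was not given.

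**Figure D1:**
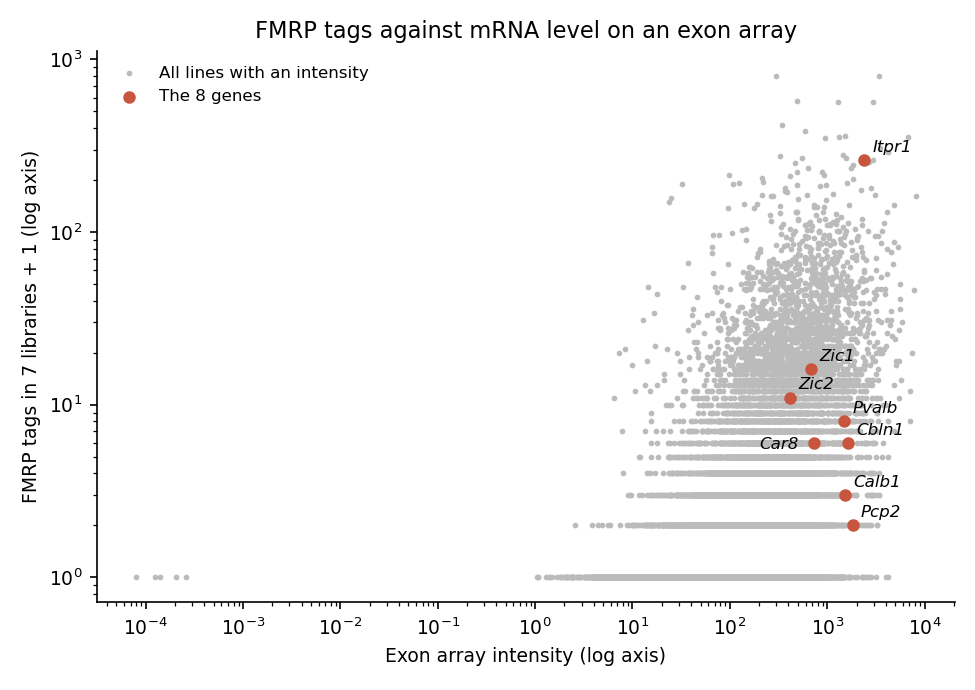
Each point is a line of the authors' table, with its exon array intensity on the horizontal log axis and its FMRP tags in 7 libraries plus 1 on the vertical log axis; the 8 genes are in red. Itpr1 (261 tags) stands high, while Pcp2, Calb1, Cbln1 and Pvalb have similar intensities and 1 to 7 tags.

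The genes also differ in length, and per kilobase of transcript the gap was smaller. Itpr1 averaged 199 ± 101 CPM per kb over the FMRP libraries (SD, n = 7), Zic1 50.6 ± 55.4, Zic2 30.5 ± 36.2, Cbln1 25.1 ± 54.6 and Pvalb 22.2 ± 58.7. Car8 averaged 5.68 ± 9.95, Calb1 2.29 ± 6.07 and Pcp2 1.90 ± 5.04 CPM per kb (n = 7 each). Below Itpr1, neighbours in this order differed by less than the larger of their SDs over libraries. Single libraries of Itpr1 ran from 68.9 to 370.2 CPM per kb, and of Zic1 from 0 to 162, so even these ranges overlapped.

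Itpr1 levels by age were given by the authors' counts. It had 30 tags at P11 and 168 at P13 in Protocol 2. In Protocol 1 it had 5 tags at P14 and 14 at P25 with the polyclonal antibody, and 9 at P14, 12 at P15 and 23 at P25 with the monoclonal antibodies. As CPM of the same table, these are 1179.5 and 3867 in Protocol 2, 720.3 and 2393 with the polyclonal antibody in Protocol 1, and 2011, 1626 and 2755 with the monoclonal antibodies. The P13 library was highest and the polyclonal P14 library lowest. In the order of levels (polyclonal P14, P11, P15, monoclonal P14, polyclonal P25, monoclonal P25, P13) each library's 95% counting interval overlapped that of its neighbour. Group means were 2523 ± 1901 CPM for Protocol 2 (SD, n = 2), 1557 ± 1183 for the polyclonal antibody in Protocol 1 (n = 2) and 2131 ± 574 for the monoclonal antibodies (n = 3). These means differed from each other by less than the SD within either polyclonal group.

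**Figure D2:**
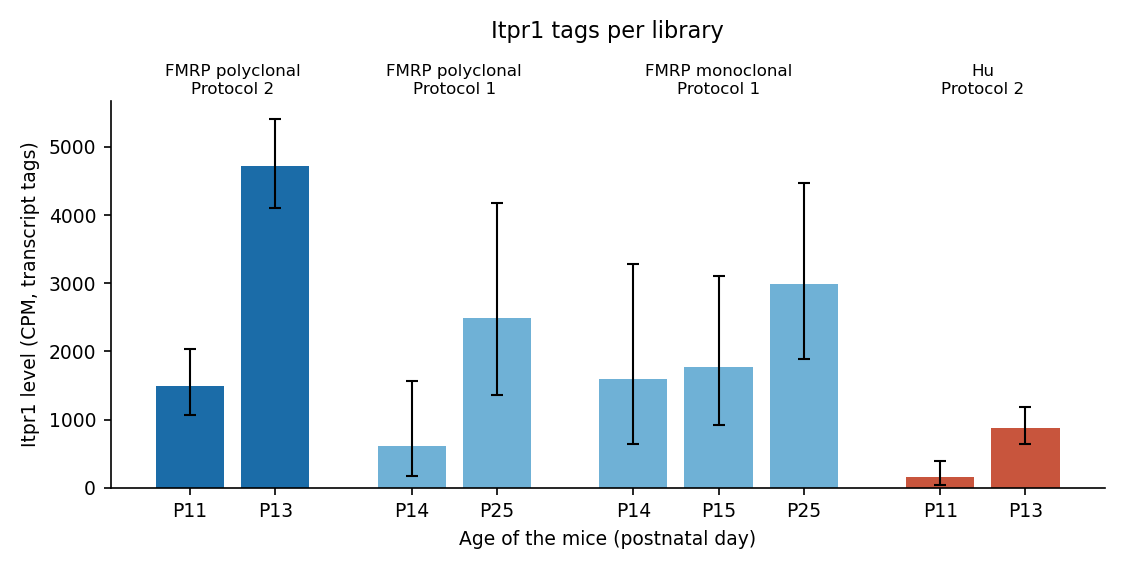
Bars give Itpr1 in CPM of transcript tags for each library, with FMRP in blue (dark for Illumina, light for 454) and Hu in red, and lines give the 95% Poisson interval of the tag number. FMRP libraries range from 612 CPM at P14 to 4719 CPM at P13, and the Hu libraries hold 155 CPM at P11 and 883 CPM at P13.

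The later age within one protocol was P25, set against P14 and P15. Both P25 libraries had more Itpr1 than all 3 younger libraries of Protocol 1. The counts were 23 and 14 tags at P25 (2755 and 2393 CPM), against 9, 12 and 5 tags (2011, 1626 and 720.3 CPM) at P14 and P15. The log2 difference, P25 over P14 and P15, was 1.04 ± 0.44 (SE), with an unadjusted p of 0.0194 and an adjusted p of 0.368 by the edgeR quasi-likelihood fit with antibody as a term. It did not pass the test. Of 95 genes with enough tags to be tested, 0 were called (0%), with 5 at an unadjusted p under 0.05, and DESeq2 called 0 as well, with 0 under that limit.

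Itpr1 was the single member with enough tags for that test. Zic1 had 3 tags at P25 and 4 at P14 and P15, which is 211 and 213 CPM. Zic2 had 1 tag at P25 and 2 at the younger ages, Cbln1 2 and 0, and Car8 0 and 1. Calb1, Pcp2 and Pvalb had none at either age by the authors' counts, while the tags placed on the genome hold 1 on Calb1 at P14 and 1 on Pvalb at P25. Summed tags on 16 other Purkinje cell genes were at 8816 and 7111 CPM at P25, against 7347 to 8282 CPM at P14 and P15. As cortex and cerebellum were combined, this sum is not tied to Purkinje cells. Summed oligodendrocyte markers were at 519 and 1422 CPM at P25, against 1331 to 1990 CPM at the younger ages.

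Between P13 and P11, in Protocol 2, each protein has 1 library per age and no replicate check. Itpr1 was higher at P13 in both. In FMRP it had 3867 CPM at P13 and 1179.5 CPM at P11 by the authors' counts, a ratio of 3.28 (exact 95% counting interval 2.21 to 5.01). In Hu it had 44 transcript tags at P13 and 4 at P11, a ratio of 5.71 (2.08 to 21.9). Over the 760 genes with at least 20 FMRP transcript tags in the pair the median log2 ratio (0.5 added to each count) was -0.03, with -1.46 and 1.68 as the percentiles 5 and 95, and Itpr1 with 1.65 lay at percentile 93.9. Over 920 genes with as many Hu tags the median was -0.05, and Itpr1 with 2.36 lay at percentile 97.9.

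Pvalb showed the same order in Hu, with 27 tags at P13 and 3 at P11, a ratio of 4.67 (1.44 to 24.1) and percentile 96.5. In FMRP the authors counted 7 Pvalb tags at P13 and 0 at P11, and the transcript lists held 4 and 0. The exact 95% lower limit of the ratio was 0.844 by the authors' counts and 0.401 by transcript tags, so a difference was not detectable at this depth. Calb1 had 8 and 3 Hu tags and Car8 4 and 1 Hu tags at P13 and P11, with intervals of the ratio that include 1. Zic1 pointed in opposite directions in the 2 proteins, a difference that was not tested. It had 10 transcript tags at P13 and 2 at P11 in FMRP, a ratio of 3.04 (0.648 to 28.5), and 19 and 16 tags in Hu, a ratio of 0.616 (0.300 to 1.28). By the authors' counts Zic1 had 5 and 3 FMRP tags, a ratio of 0.976.

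Markers of other cells differed between the same libraries. All 7 oligodendrocyte markers had tags, and their sum was 2677 CPM at P13 and 336 CPM at P11 in FMRP, and 16049 and 7034 CPM in Hu. All 8 Bergmann glia and astrocyte markers had tags. Their sum was 1044 CPM at P13 and 1717 CPM at P11 in FMRP, and 181 and 387 CPM in Hu. In Hu, Slc1a2, Aqp4, Gfap, Gdf10 and Aldh1l1 were at 0, while Slc1a3 and Hopx held 8 tags each and Fabp7 held 3. Hopx had 0 FMRP tags in these libraries and Slc1a3 had 3. Of the 9 genes listed as cortical neuron markers, all but Fezf2 had tags in these libraries, and Fezf2 had 3 tags in the 454 libraries alone. Their sum was 2133 and 1456 CPM in FMRP and 3471 and 3092 CPM in Hu. Slc17a7 held 65 FMRP tags and 54 Hu tags of these, P11 and P13 together. With cerebellum not separated from cortex, this sum is not tied to cortical neurons. The other Purkinje cell genes summed to 6693 and 4441 CPM in FMRP and to 5517 and 3208 CPM in Hu. Of their tags, P11 and P13 together, Atp2b2 held 170 in FMRP and 97 in Hu, and Dner held 17 and 123. The other granule cell genes summed to 1566 and 1829 CPM in FMRP and 1344 and 1817 CPM in Hu. As cortex and cerebellum were combined, these sums are not tied to Purkinje or granule cells. In the transcript lists, microglia markers (2 of 5 with a tag, Aif1, Cx3cr1 and P2ry12 without one) and endothelial markers (3 of 5, Cldn5 and Tek at 0) stayed at or below 6 summed tags in every library. The authors' FMRP counts hold 3 tags on Cx3cr1 and 1 on P2ry12. Of 6 markers of cerebellar interneurons and Golgi cells 3 had transcript tags, among them the member Pvalb with 30 Hu tags. Kit had tags in the authors' FMRP counts alone, and Slc6a5 and Pax2 were at 0. The part of these other cells in the Itpr1 and Pvalb ratios was not tested. In such mixed tissue, fewer cells of a type and less RNA per cell cannot be told apart.

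FMRP was then compared with Hu within the P11 and P13 lysates, which asks which mRNAs on the same polyribosomes carried more of one protein's tags. Itpr1 was the member on the FMRP side. It had 40 and 208 transcript tags in FMRP (1493 and 4719 CPM at P11 and P13), against 4 and 44 in Hu (155 and 883 CPM). Both FMRP libraries were above both Hu libraries. The log2 ratio was 2.85 ± 0.89 (SE, Benjamini-Hochberg adjusted p = 0.0210 in the edgeR fit, n = 2 each). By tag totals the ratio was 9.66 at P11 (3.49 to 37.2) and 5.35 at P13 (3.85 to 7.58), with exact 95% counting intervals.

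Calls were frequent in this comparison. Of 1015 genes tested, 619 were called (61%), 342 higher in FMRP (33.7%) and 277 lower (27.3%), and 2 of the 8 members had enough tags to be tested, of which Itpr1 was called. The Itpr1 call also rested on the Hu library of P11: without it the log2 ratio was 1.97 and the adjusted p 0.110. The log2 ratio was 4.63 without Hu at P13, 1.75 without FMRP at P13 and 3.83 without FMRP at P11, and it passed in these 3 fits.

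Zic1 leaned to Hu without passing the test. It had 2 and 10 transcript tags in FMRP (74.6 and 227 CPM at P11 and P13), against 16 and 19 in Hu (618 and 381 CPM). Both Hu libraries were above both FMRP libraries. The log2 ratio, FMRP over Hu, was -1.25 ± 0.72 (SE, adjusted p = 0.150 by edgeR). With tags placed on the genome and counted within gene bounds, 3 and 5 FMRP tags stood against 12 and 21 Hu tags, and the log2 ratio of -1.64 passed with an adjusted p of 0.0320 by edgeR. The Zic genes share much of their zinc-finger sequence, and how tags that match several of them were placed is not stated.

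The other members had too few tags for the fit, and their ratios carry counting error only. Pvalb had 0 and 4 FMRP tags, against 3 and 27 Hu tags, a ratio of 0.142 (0.0365 to 0.404), and 0.341 (0.126 to 0.796) with genomic tags. Calb1 had 2 FMRP tags and 11 Hu tags, a ratio of 0.194 (0.0209 to 0.890), and with genomic tags 0.257 (0.0277 to 1.18), an interval that includes 1. Car8 had no FMRP tag and 5 Hu tags, with an exact upper limit of 1.17 on the ratio, and 4 against 14 with genomic tags, a ratio of 0.404 (0.0968 to 1.29), so both intervals include 1. Zic2 had 8 FMRP tags and 9 Hu tags, a ratio of 0.95 (0.319 to 2.77), so a difference within these bounds was not detectable at this depth. Pcp2 had 1 FMRP tag and no Hu tag, and Cbln1 had no tag in any transcript list.

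**Figure D3:**
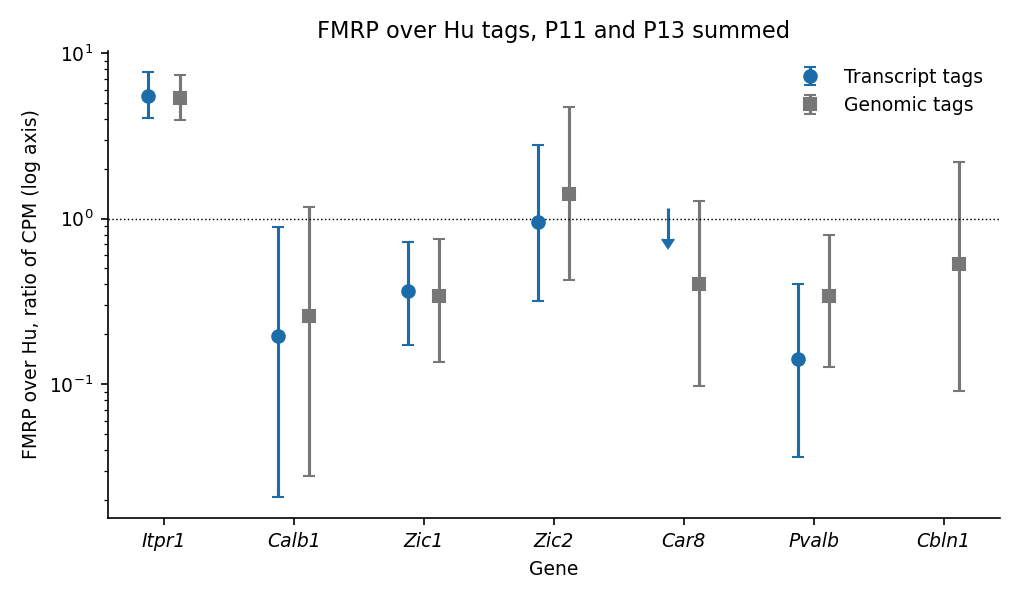
Points give the ratio of FMRP to Hu CPM on a log axis, P11 and P13 summed, for transcript tags (circles) and genomic tags (squares), with exact 95% counting intervals; the arrow for Car8 starts at the upper limit of 1.17, where FMRP had 0 tags. Itpr1 (5.52 with transcript tags) lies above 1 and Pvalb (0.142) and Zic1 (0.366) below it, while Zic2 lies near 1.

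The 2 proteins left most of their Itpr1 tags on different stretches of the transcript. FMRP tags were spread over nearly the whole length, from nt 150 to nt 9798 of the transcript in the Illumina libraries. Each of the first 8 stretches of 1000 nt held 7.66% to 15.3% of the 248 tags, the next held 3.63%, and nt 9001 to 10000 held 4 tags (1.61%). The 100 nt with most tags held 12 of 248 (4.84%), and the 248 tags had 220 start positions. The 60 FMRP tags of the 454 libraries lay between nt 18 and nt 8404, with 5 in the densest 100 nt. Hu tags lay near the 3′ end: 39 of 48 (81.2%) were in nt 9001 to 10000, and 23 of 48 (47.9%) had their middle in 1 window of 100 nt. The median tag middle was at 42.5% of the transcript length in the FMRP Illumina libraries, 41.1% in the FMRP 454 libraries and 90.9% in the Hu libraries.

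**Figure D4:**
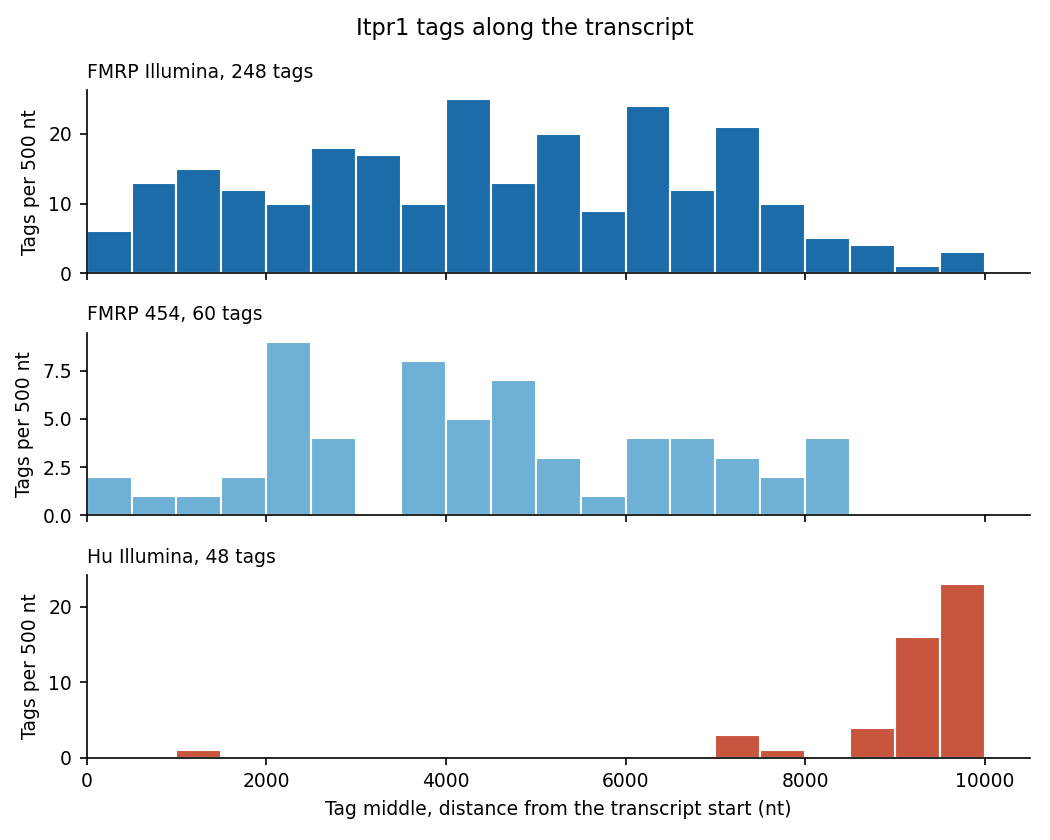
Tags on the Itpr1 transcript, counted by tag middle per 500 nt from the transcript start, in the FMRP Illumina, FMRP 454 and Hu Illumina libraries. FMRP tags run along the transcript and thin out past nt 8000, whereas 39 of 48 Hu tags lie in nt 9001 to 10000.

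By the authors' counts the FMRP tags on Itpr1 were nearly all coding. In the 7 libraries 249 of 261 tags (95.4%, Wilson 95% interval 92.1 to 97.4) fell in coding sequence. Single libraries had 93.3% at P11 and 95.2% at P13 in Protocol 2, 100% in both polyclonal libraries of Protocol 1, and 88.9%, 100% and 95.7% at P14, P15 and P25 with the monoclonal antibodies. An even spread over the transcript would give 79.7%, and every library was above that, by 16.5 ± 4.21 percentage points (SD, n = 7; exact two-sided sign-flip test, p = 0.0156, the smallest that 7 libraries allow). Over all genes with lengths, the coding share was 81.1% ± 5.55 (SD, n = 7), above an even spread by 25.1 ± 4.09 points, and with a coding length of 79.7% Itpr1 could exceed an even spread by at most 20.3 points.

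The few tags on the other members fell in both parts. For Zic1, 12 of 15 FMRP tags were coding (80%, Wilson 95% interval 54.8 to 93.0), where an even spread would give 40.1%. The Illumina libraries had 2 of 3 coding at P11 and 3 of 5 at P13. The 454 tags (monoclonal 4 at P15 and 2 at P25, polyclonal 1 at P25) were all coding, but the transcript lists hold 0 there. For Zic2, 8 of 10 were coding (49.0 to 94.3), against 53.6% for an even spread. None of the 7 Pvalb tags was coding (0 to 35.4), and an even spread would give 32.1%. None of the 5 Car8 tags and 2 of the 5 Cbln1 tags were coding.

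The places of the tags on the other transcripts varied from gene to gene. On Zic1, 10 of 12 FMRP tags lay within nt 230 to 310, and the other 2 ended at nt 2320 of 3350. Of the 35 Hu tags on Zic1, 16 had their middle in 1 window of 100 nt, the tags there running from nt 2249 to 2398. The 2 proteins shared both places, since the other 2 FMRP tags had their middles in that stretch and a few Hu tags lay among the FMRP tags near the start. The transcript lists and the authors' counts differ for Zic1, for a reason not given in the sources used here. The authors counted 3 and 5 FMRP tags at P11 and P13, where the lists hold 2 and 10. In the 454 libraries they counted 4 at P15 and 2 at P25 with the monoclonal antibodies and 1 at P25 with the polyclonal antibody, where the lists hold 0. On Zic2 the median tag middle was at 37.5% of the length for 8 FMRP tags and at 81.7% for 9 Hu tags, with the first Hu tag at nt 2038 of 2967. On Pvalb both proteins had tags in the same stretch, 24 of 30 Hu tags having their middle in 1 window of 100 nt (tags from nt 412 to 532 of 1037) and all 4 FMRP tags lying between nt 455 and 567. On Calb1 the 11 Hu tags lay between nt 971 and 1879 of 2867, and the 2 FMRP tags lay outside it.

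**Figure D5:**
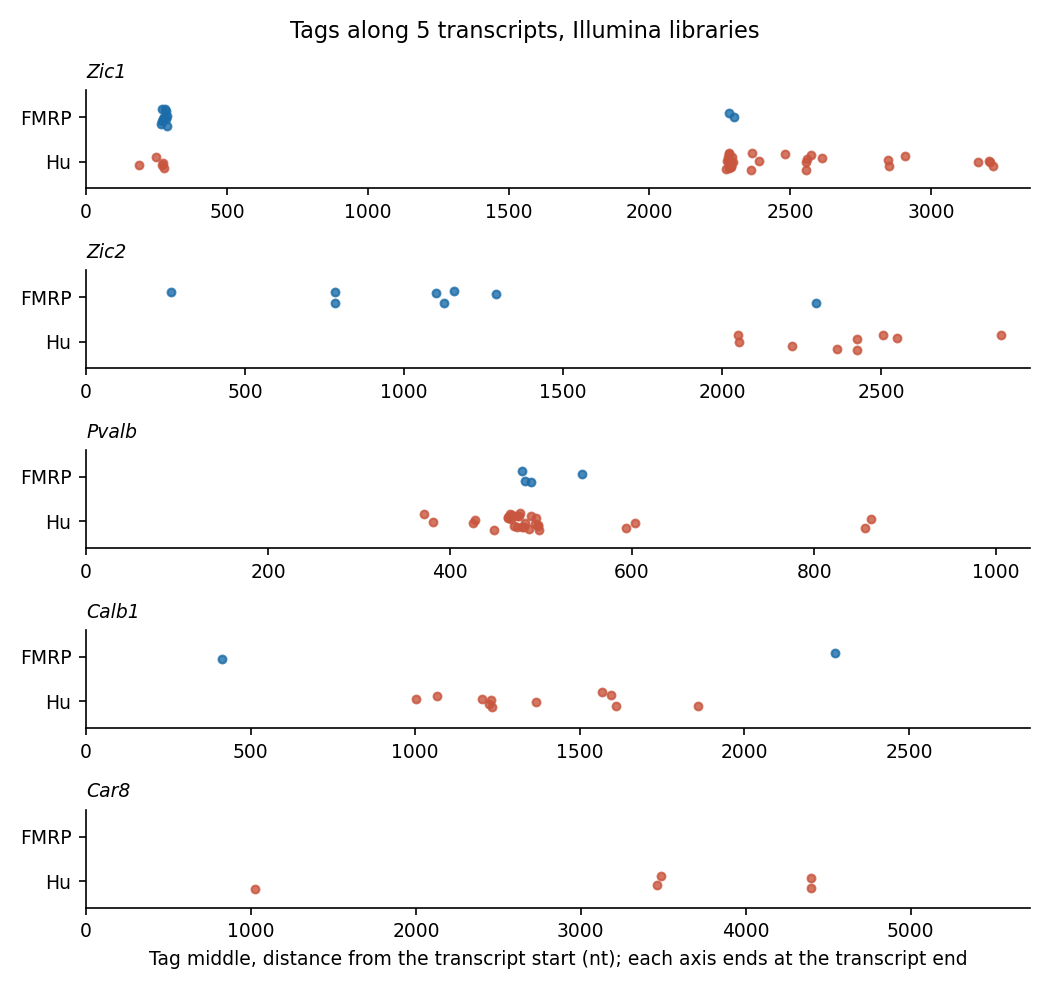
Each point is the middle of a tag in nt from the transcript start, for FMRP (blue, above) and Hu (red, below) in the Illumina libraries at P11 and P13; each axis ends at the end of that transcript, and vertical scatter only separates points. On Zic1 10 of 12 FMRP tags lie near the start and most Hu tags in the second part, and on Pvalb 24 of 30 Hu tags lie between nt 412 and 532.

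The 3 lists of other genes give the setting of these values in the comparison of FMRP with Hu. Of 16 other Purkinje cell genes, 6 had enough tags to be tested, 2 were higher in FMRP (33.7% of all genes tested were), 0 lower (27.3%) and 4 were not called, and their median log2 ratio was 0.11, against -0.17 over all 1015 genes. Cacna1a, the pore subunit of the P/Q-type calcium channel, was higher in FMRP (log2 1.96 ± 0.64, SE, adjusted p = 0.0250 by edgeR), as was the BK potassium channel gene Kcnma1 (2.57 ± 0.98, adjusted p = 0.0428). Both calls were lost without Hu at P11 (adjusted p of 0.217 for Cacna1a and 0.258 for Kcnma1, by edgeR), with genomic tags (0.105 and 0.400) and with no filter on low counts (0.243 and 0.105). The Notch ligand gene Dner had 17 FMRP tags and 123 Hu tags (-2.34 ± 0.96, adjusted p = 0.0569), and with the lysate as a block it passed the test by edgeR (-2.57, adjusted p = 0.00560). It passed in 7 of 11 alternatives, with log2 ratios of -4.80 to -1.07 and adjusted p of 0.00150 to 0.389 over them, the smallest ratio in size without Hu at P13 and the largest without FMRP at P13. The calcium pump gene Atp2b2 had a log2 ratio of 1.09 ± 0.69 (adjusted p = 0.182 by edgeR). It was 2.09 and passed without FMRP at P11 (adjusted p = 0.00872 by edgeR), and 0.06 without FMRP at P13 (adjusted p = 0.943).

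Of 15 other granule cell genes, 3 were tested, 2 were higher in FMRP (33.7% of all genes tested), 0 lower (27.3%) and 1 not called, with a median log2 ratio of 1.55. Fat2, which encodes a large protocadherin of granule cells, had 26 FMRP tags and 1 Hu tag, a ratio of 27.8 (exact 95% counting interval 4.56 to 1139, adjusted p = 0.00211 by edgeR). With 1 Hu tag, Fat2 passed the filter on low counts through the FMRP libraries alone, so it could be called in that direction only. Reln, the secreted guide of migrating neurons, had 27 FMRP tags and 12 Hu tags (log2 1.55 ± 0.59, adjusted p = 0.0443 by edgeR), and its call was lost with the lysate as a block (adjusted p = 0.117 by edgeR) and in 8 of 10 alternatives in all. The netrin receptor gene Unc5c had 10 FMRP tags and 32 Hu tags (log2 -1.30 ± 0.61, adjusted p = 0.0863 by edgeR), and passed with library totals alone of 11 alternatives (-1.59, adjusted p = 0.0394).

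Of 15 genes of calcium release and buffering, 4 were tested, 2 were higher in FMRP (33.7% of all genes tested), 0 lower (27.3%) and 2 not called, with a median log2 ratio of 1.02. Ryr2, the ryanodine receptor that also releases stored calcium, had 106 FMRP tags and 14 Hu tags (log2 3.31 ± 0.77, adjusted p = 0.00618 by edgeR). Plcb1, a phospholipase C that makes inositol trisphosphate, had 28 FMRP tags and 2 Hu tags, a ratio of 14.96 (3.77 to 129.6, adjusted p = 0.00354 by edgeR). Like Fat2, Plcb1 passed the filter on low counts through the FMRP libraries alone and could be called in that direction only. With genomic tags the Plcb1 log2 ratio was 0.49 and it did not pass (adjusted p = 0.504 by edgeR). Without Hu at P11 neither passed, with adjusted p of 0.0739 for Ryr2 and 0.0709 for Plcb1 by edgeR. Gnaq, the G protein subunit upstream of that enzyme, had 20 FMRP tags and 70 Hu tags (log2 -1.52 ± 0.70, adjusted p = 0.0813 by edgeR), and the endoplasmic calcium pump gene Atp2a2 50 and 165 (log2 -1.27 ± 0.68, adjusted p = 0.124 by edgeR). With genomic tags both passed as lower in FMRP, with log2 ratios of -1.73 for Gnaq (adjusted p = 0.0225 by edgeR) and -1.55 for Atp2a2 (adjusted p = 0.0236). Each passed in 3 of 11 alternatives, with adjusted p of 0.0192 to 0.533 for Gnaq and 0.0225 to 0.695 for Atp2a2 over them. Without FMRP at P11 the log2 ratios were -0.75 and -0.41, and without FMRP at P13 they were -2.00 and -1.93, of which that of Atp2a2 passed (adjusted p = 0.0478 by edgeR). Without Hu at P13 Atp2a2 had -0.60 (adjusted p = 0.412 by edgeR). The paralogs Itpr2 and Itpr3 had 5 and 6 FMRP tags and no Hu tag, with exact 95% lower limits on the ratio of 0.979 and 1.26. In the comparison of ages 1 gene of these lists was tested and 0 were called.

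Protocol 2 was set against Protocol 1 within the polyclonal FMRP libraries, where age, dissociation and sequencing platform cannot be told apart. Itpr1 had 30 and 168 tags (1179.5 and 3867 CPM) in Protocol 2 and 5 and 14 tags (720.3 and 2393 CPM) in Protocol 1, so the groups overlapped. The log2 ratio was 0.91 ± 0.65 (SE, adjusted p = 0.398 by edgeR) and did not pass. Of 329 genes tested, 13 were called (3.95%), 4 higher (1.22%) and 9 lower (2.74%) in Protocol 2, and none of the other members could be tested. The direction rested on the P13 library: without it the log2 ratio was -0.14 (adjusted p = 0.932 by edgeR), and without the P11 library it was 1.71 and passed (adjusted p = 0.000302 by edgeR). Of the 3 lists, 7 genes were tested here and 0 were called.

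The genes whose tags followed Itpr1 most closely over the 9 libraries were found by Pearson's r of log2(CPM + 20) among 781 genes with at least 50 transcript tags. They were the kinase gene Lmtk2 (r = 0.948), the Purkinje cell list member Kcnma1 (0.926), Iqsec1 (0.924), which encodes an exchange factor for Arf GTPases, Grit (0.899) and 6430517E21Rik (0.897). Lmtk2 had 1642 and 2065 CPM in FMRP at P11 and P13, against 541 and 923 CPM in Hu. Kcnma1 had 597 and 998 CPM in FMRP, against 0 and 281 CPM in Hu. The values share libraries and depth, so r is a description of these 9 libraries.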

How the data were processed

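The submitters' processing notes name Novoalign and mm9, without a version. Tag counts per gene over the whole transcript and over coding sequence were deposited by the authors for the 7 FMRP libraries. Each library also has deposited lists of unique tags on RefSeq transcripts and on the genome, in which each line was counted as 1 tag. The deposited score beside each Illumina tag has no stated meaning and was not used. The exon array intensity, the chi-square, library number and FDR (treated as scores), the p-value and the mRNP ratio are the authors' deposited values, with no account of how they were made. Lines with no gene held 0.143% to 0.341% of the table's tags and were left out.

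Transcript tags were summed to 11622 genes, with names from the authors' table for 11415 and accessions only for 207. Hu has no column in that table, so FMRP and Hu were compared on transcript tags, and ages and protocols on the authors' counts. The tests were edgeR 4.0.16 (R 4.3.3) quasi-likelihood fits with TMM, filterByExpr and Benjamini-Hochberg adjustment at 0.05, two-sided. DESeq2 1.42.0 was an alternative. Only the edgeR fit was run on simulated counts, with a dispersion set in advance and not taken from these libraries. FMRP and Hu were fitted on the 4 Illumina libraries, ages on the 5 libraries of Protocol 1 with antibody as a term, and protocols on the 4 polyclonal FMRP libraries. Per the series text, each of the P11 and P13 lysates was divided between FMRP and Hu, which pairs the libraries. The correlation of their deviations from the protein mean over 1015 genes was 0.0641, and blocked values are given where they change a call. Ratios of tags carry exact 95% counting intervals and shares Wilson intervals. Libraries of a group differ in age and are pools of mice, and p-values reflect the spread among them alone.

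The members and gene lists were chosen with earlier results of these data known. Some genes of the Purkinje cell list are not reported here. Named genes are the 8 members, up to 4 genes per list with the smallest p, and the 5 genes most like Itpr1. Itpr2 and Itpr3, the paralogs of Itpr1, and the named markers of other cells are outside that rule and were chosen after their values were seen. Software was matplotlib 3.10.9, scipy 1.17.1, pandas 2.3.3, numpy 2.4.6 and Python 3.11.15.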

Additional observations from a re-analysis of the deposited data

Results flagged for a closer look

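Zic1 moved in opposite directions between P13 and P11 in the FMRP and Hu libraries. The ratio was 3.04 in FMRP (10 transcript tags at P13 and 2 at P11) and 0.616 in Hu (19 and 16 tags). The difference was not tested, with 1 library per protein and age, and both counting intervals include 1. By the authors' counts the FMRP ratio was 0.976.

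Cbln1 had no tag in any transcript list, but tags lay within its bounds on the genome. There were 3 in FMRP at P13 and 0 at P11, and 7 in Hu at P13 and 1 at P11, all on 1 strand. The 7 tags are above the 3 that a count of 0 allows.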

How the results depend on the processing

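FMRP over Hu called 619 genes, and 603 with the lysate as a replicate block, 623 with DESeq2 size factors, 715 with library totals, 462 with DESeq2, 531 with no filter, 520 with genomic tags and 636 with 1 tag per start position. Leaving out 1 library gave 323 to 532, the lowest without Hu at P11. The block changed no member's call and, of the 11 list genes named, the calls of Reln and Dner. Scaling moved the median log2 ratio of all genes from -0.17 to 0.21 with DESeq2 size factors and to -0.43 with library totals, and both members that could be fitted, Itpr1 and Zic1, kept their direction. Itpr1 kept its call in 10 of 11 alternatives, with log2 ratios of 1.75 to 4.63 over the 11 and adjusted p up to 0.110. Zic1 passed in 1 of 11, with genomic tags, with adjusted p of 0.0320 to 0.800 over them. P25 over P14 and P15 called 0 genes in all 11 alternatives, with the log2 difference of Itpr1 at 0.64 to 1.84. Protocol 2 over Protocol 1 called 13 genes, and 27 with DESeq2 size factors, 30 with library totals, 28 with no filter, 20 with transcript tag lists and 0 with DESeq2 (39 at an unadjusted p under 0.05), and 1 to 20 with 1 library left out, where the log2 ratio of Itpr1 was -0.14 to 2.24. The coding excess of Itpr1 was 17.2 points in the 454 libraries alone (exact sign-flip p = 0.0625) and 14.6 in the Illumina libraries alone (exact p = 0.5), each the smallest p that number of libraries allows, and 15.8 to 17.7 with 1 library left out. The causes were not tested. Alternatives for the list genes were chosen after seeing the data. At these depths no member but Itpr1 had more than 27 transcript tags in a library.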
